A study of Danio rerio with 3 samples.

Results

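Krüppel-like factors are transcription factors whose C-terminal zinc fingers bind GC-rich and CACCC-type DNA. The part of the protein ahead of the fingers recruits coactivators or corepressors, and it sets whether a family member raises or lowers its targets. In mammals, KLF9, KLF11 and KLF13 bind the SIN3 corepressor, KLF3 binds the corepressor CtBP, and KLF2, KLF4, KLF6 and KLF7 act mostly as activators. The set described here holds 10 zebrafish genes taken by gene symbol from the array's probe table (klf11a, klf11b, klf2a, klf2b, klf3, klf4, klf6a, klf9, klf13 and klf7b), of 14462 genes on the array. The members were chosen by these same exposed-against-control ratios, around the large ratio of klf11a, so their ratios are given as a description, without a test.

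The samples compared embryos exposed to Aroclor 1254, a commercial mixture of polychlorinated biphenyls, with control embryos on two-channel oligonucleotide arrays. Exposed embryos received 71.9 mg/L Aroclor 1254 from 24 hpf (hours post fertilization) for 24 h, and control embryos stayed in fish medium at 28.5 °C. RNA came from whole embryos at 48 hpf, and the labels name neither a strain nor the number of embryos pooled. There were 3 samples, labelled biological replicates, and each gave 1 log ratio per row that already sets 1 condition against the other. A whole-embryo ratio cannot tell fewer cells of a type from less RNA per cell.

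The sources used here do not give the numerator of the ratios, and the design names dye swaps without saying how they were combined. Each sign is the deposited one and is not read as a rise or a fall with exposure. The ratio of cyp1a, the cytochrome P450 gene that serves as the standard marker of aryl hydrocarbon receptor activation, was positive at 7.07, 8.61 and 8.02 in replicates 1, 2 and 3 on the log2 scale (7.90 ± 0.78, SD, n = 3). Members can be set against that sign. Over the 5904 genes measured in all 3 samples the replicates correlated with each other at Pearson r between 0.29 and 0.47, across genes, which are not independent replicates. A value stood at 90.9% of skeletal muscle marker probes, 85.7% of red blood cell, 83.3% of neuron, 81.8% of liver, 75% of epidermis and 58.3% of heart marker probes. For endothelium and gut markers the share was 37.5% each, below the 45.4% of all probes with a gene. The replicates differed in several marker lists. The median ratio of neuron markers was 0.08, -1.34 and -0.22 in replicates 1, 2 and 3, that of red blood cell markers 0.58, 1.63 and -0.42, and that of epidermis markers 0.19, 0.95 and -0.17. In these lists, and in heart markers (-0.41, 0.58 and -0.01), replicate 2 was farthest from 0. In liver (-0.78, -0.37 and 0.12), gut (-2.29, -0.29 and -0.61) and endothelium markers (0.92, 0.59 and 0.62) it was replicate 1. The skeletal muscle medians were -0.11, -0.11 and 0.17. All these medians are over the marker genes measured in all samples, which were few. They numbered 8 for neuron, 7 each for red blood cell and skeletal muscle, 6 for epidermis and 4 for heart. Liver had 3, and gut and endothelium had 2 each. The part of these markers in the ratios below was not tested.

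Of the 10 genes, 9 were on the array by symbol, 7 had a value in at least 1 sample and 6 had one in all 3. The probe table held no klf4 probe. Its klf17 probes, of a different gene that has also been called klf4 and klf4b, were not used in its place. The probes of klf9 and klf13 had no value in any sample, and klf11b had none in replicate 3. In all, 9 of the 13 member probes had a value (69.2%), against 45.4% of the 21060 probes with a gene. All gene names rest on a matching of rows to probes by grid position, which was inferred from the values. Under it, probes of 1 gene that were measured in all samples had mean ratios correlated at r = 0.76 (2169 pairs), against 0.03 (440 pairs) with the row numbers as given. Both correlations use the values from which the matching was inferred, so they are no independent check of it.

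The mean ratio farthest from 0 in the set was that of klf11a, around which the set was chosen. Next came that of its paralog klf11b, over replicates 1 and 2 alone. Both genes belong to the SIN3-binding branch, whose other members in the set, klf9 and klf13, had no value. The gene klf11a, whose mammalian counterpart is a TGF-beta-inducible repressor, had log2 ratios of -2.25, -1.73 and -1.85 in replicates 1, 2 and 3. All 3 were negative, opposite in sign to cyp1a, and lay within 0.51 of each other. The mean was -1.94 ± 0.27 (SD, n = 3), a 3.85-fold ratio. All folds take the deposited values as log2, which their range fits; as natural logarithms, this ratio would be 6.98-fold.

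Within each sample klf11a lay at the negative edge of the genes measured. Only 0.745% of genes were lower in replicate 1, 2.61% in replicate 2 and 0.373% in replicate 3. Its mean was the 14th lowest of 5904 genes. The genes lower than klf11a in every sample numbered 2, the co-chaperone gene fkbp5 and the splicing factor gene srsf4. The value came from a single probe, so no other row of the gene checks it.

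**Figure D1:**
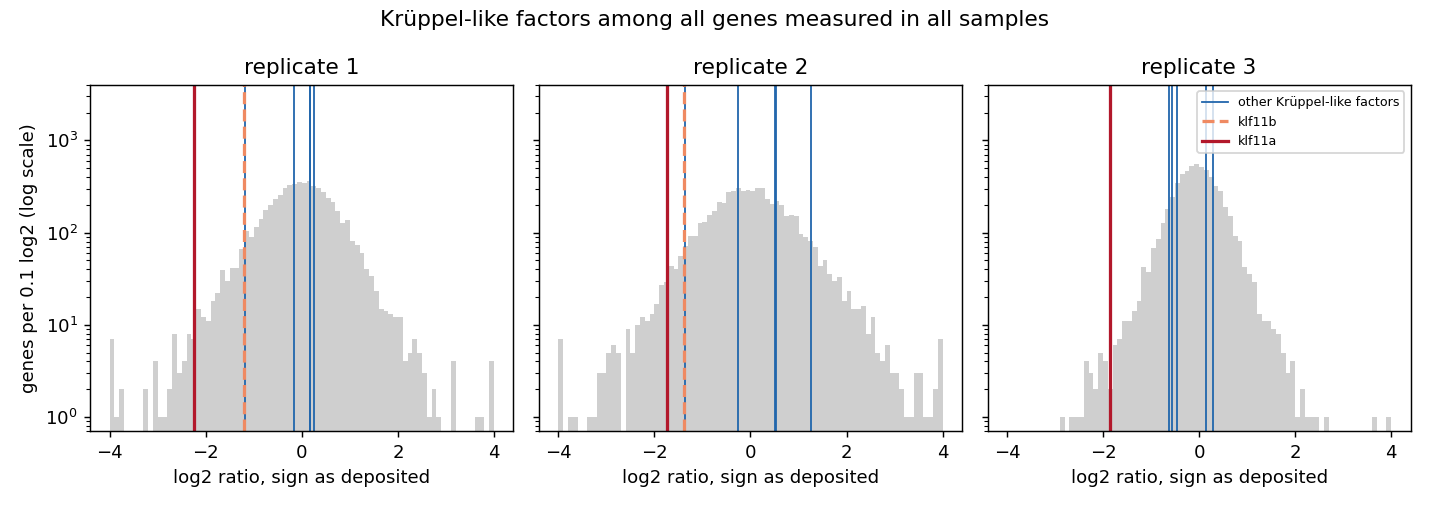
Histograms of the log2 ratios (sign as deposited, x axis) of the 5904 genes measured in all 3 samples, 1 panel per replicate, with the number of genes per bin on a log y axis and values beyond 4 either way drawn in the outermost bin. Vertical lines mark the Krüppel-like factors; klf11a (red) stands at -2.25, -1.73 and -1.85, in the negative tail of each panel, and klf11b (dashed) has no value in replicate 3.

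Its paralog klf11b had ratios of -1.20 and -1.37 in replicates 1 and 2 (mean -1.29 ± 0.12, SD, n = 2; 2.44-fold). Both were negative, and both were closer to 0 than klf11a in the same sample, by 1.05 in replicate 1 and 0.36 in replicate 2. With 2 samples the gap has no replicate check beyond these values. The klf11b values came from a single probe, and both replicates had wider ratios over all genes than replicate 3. In replicate 1, 5.86% of genes were lower than klf11b, and in replicate 2, 5.35%. A negative ratio of at least 1.5-fold in both of these replicates was seen in 7.92% of 5963 genes measured in them. The other SIN3-binding members of the set, klf9, a glucocorticoid- and thyroid hormone-responsive factor in vertebrates, and klf13, had no value to set beside them.

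Among the genes of the activator branch no member had 1 sign in all 3 samples. The gene klf2a, which responds to blood flow in zebrafish endothelium and heart valves, had ratios of 0.16, -1.37 and 0.15 in replicates 1, 2 and 3 (-0.35 ± 0.88, SD, n = 3). Replicate 2 alone was negative, and without it the mean was 0.16. The spots around the klf2a spot had a median ratio of -0.41 in replicate 2, against -0.16 and -0.28 in replicates 1 and 3.

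Its paralog klf2b averaged -0.17, 0.53 and -0.63 over its 2 rows (-0.09 ± 0.58, SD, n = 3). These averages had the opposite sign to klf2a in every sample, but both single rows did so in replicate 3 alone. The 2 rows of klf2b themselves differed. One read -0.44, -0.52 and -0.55 (-0.51 ± 0.06, SD, n = 3), and the other 0.10, 1.58 and -0.70 (0.33 ± 1.16, SD, n = 3). Both carry the same accession in the probe table. The means of the rows were 0.83 apart, wider than in 93.4% of the 1414 genes with several rows measured in all samples, whose median gap was 0.25. Of those genes 350, or 24.8%, also had rows of opposite mean sign.

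The gene klf6a, also known as copeb and needed for liver and gut growth in zebrafish, had ratios of 0.24, 0.50 and -0.55 (0.06 ± 0.55, SD, n = 3). In replicate 2 its neighbouring spots had a median of 0.61, so its value there was no higher than its surroundings. The gene klf7b, whose mouse counterpart acts in axon growth, had ratios of 0.17, -0.27 and -0.45 (-0.18 ± 0.32, SD, n = 3), from 1 of its 3 probes. Both genes therefore changed sign between samples, and the SD exceeded the size of the mean in each.

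The CtBP-binding member klf3 had the widest spread of the set, at -1.18, 1.27 and 0.28 in replicates 1, 2 and 3 (0.13 ± 1.23, SD, n = 3). Only 4.23% of genes had a larger SD. Part of this is in its rows: 1 row read -0.64, 1.27 and 0.83, and the other -1.72 and -0.26 in replicates 1 and 3, with no value in replicate 2. The replicate 2 value of the gene thus comes from 1 row and the others from the mean of both. With the completely measured row alone the mean was 0.49.

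**Figure D2:**
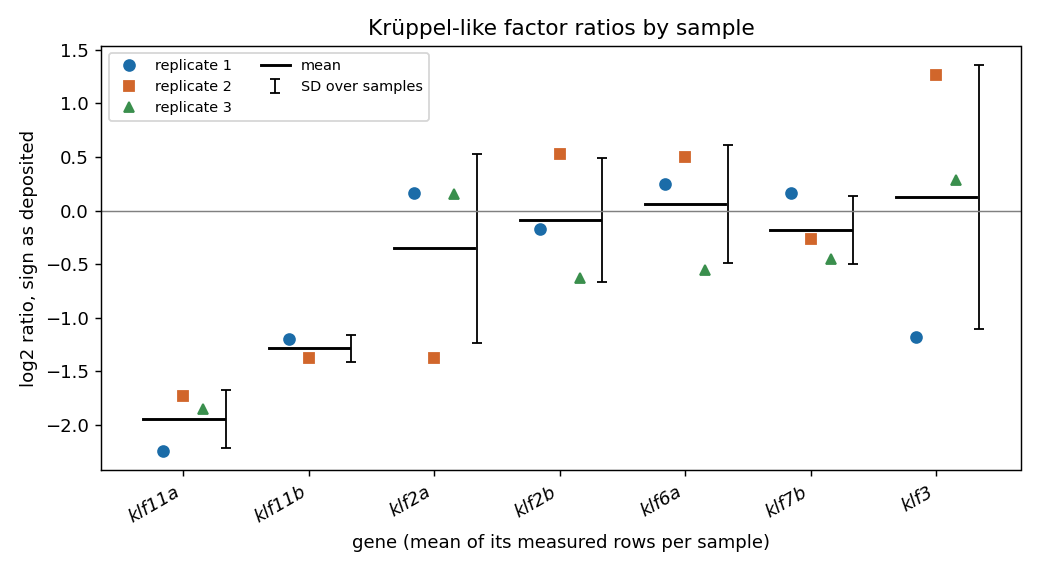
Log2 ratios (sign as deposited, y axis) of the 7 Krüppel-like factors with a value, by gene, with a coloured marker per replicate, a line at the mean and a bar for the SD over samples. The 3 klf11a values and both klf11b values lie at or below -1.20, and the other genes have values on both sides of 0.

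**Figure D3:**
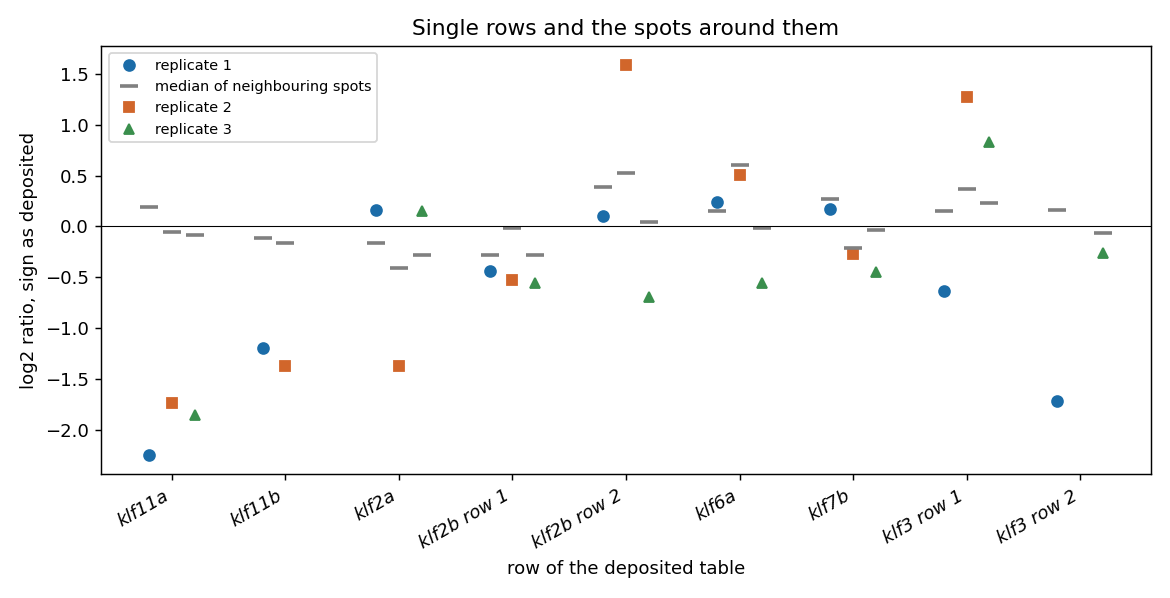
Log2 ratios (sign as deposited, y axis) of each measured row of the Krüppel-like factors, by replicate (coloured markers), with a grey dash at the median ratio of the measured spots within 5 grid positions each way. Around klf11a these medians were 0.19, -0.05 and -0.08 in replicates 1, 2 and 3; the rows of klf2b and of klf3 differ from each other.

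Counted over the 6 genes measured in all samples, 1 had the same sign in every sample (klf11a, negative), where 42.8% of all genes did, 19.7% positive and 23.1% negative. That gene also had a ratio of at least 1.5-fold and 1 sign in all samples, as did 5.34% of all genes (2.71% on the negative side), and of at least 2-fold, as did 1.32% (0.559% on the negative side). The choice of klf11a for its ratio fixes its own place in these counts. The other 5 genes had mixed signs. Their means lay between -0.35 and 0.13, inside the band of 0.5 either way that held 69.2% of all genes. The median of the 6 means was -0.14, beside -0.03 over all genes, and it was -0.002 without replicate 3. Root mean square differences from klf11a were taken over the 3 samples, which leaves out klf11b. Of the members measured in all samples, klf7b and klf2a were nearest, both at 1.82, and 2169 other genes lay closer than either. For klf11b, the difference klf11a minus klf11b was -1.05 and -0.36 in replicates 1 and 2.

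The genes whose ratios lay nearest to klf11a were acot14, an acyl-CoA thioesterase (root mean square difference 0.28 over 3 samples), srsf4 (0.31), apobb.1, an apolipoprotein B (0.32), the co-chaperone gene dnajc21 (0.34) and tnnt3b, a fast-muscle troponin T (0.50). Their means ran from -2.23 ± 0.34 for srsf4 to -1.51 ± 0.33 for tnnt3b (SD, n = 3 each). A likeness over 3 values describes the size of the ratios and little else.

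The rest of the Krüppel-like and Sp family, which shares the same type of zinc fingers, was measured thinly. Of 29 listed genes 19 were on the array, 9 had a value and 7 had one in all samples. None of the 7 passed an adjusted p of 0.05 in limma over all genes (0.0169% of genes did, cyp1a alone), and 1, sp6, had an unadjusted p under 0.05, as did 16.1% of all genes. This gene, needed for limb and tooth outgrowth in mice, had ratios of 0.52, 1.15 and 0.40 (0.69 ± 0.40, SD, n = 3; adjusted p = 0.28, limma), positive in each sample. Its relative sp8b, which acts in fin and limb buds, stood at 0.40, 0.94 and 0.03 (0.46 ± 0.46, SD, n = 3; adjusted p = 0.434, limma).

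Negative in each sample were klf15, a metabolic regulator in mammals, and sp1, a broadly expressed activator. Thus 2 of the 7 genes were positive and 2 negative in each sample, where 19.7% and 23.1% of all genes were. The ratios of klf15 were -0.58, -0.30 and -0.29 (adjusted p = 0.441, limma), and those of sp1 -0.20, -0.17 and -0.39 (adjusted p = 0.596, limma). The remaining 3 genes had mixed signs: klf5l (mean -0.60 ± 0.93), sp8a (0.17 ± 0.52) and sp9 (0.06 ± 0.20; SD, n = 3 each), with adjusted p between 0.447 and 0.92 in limma. Measured in replicates 1 and 3 alone, sp4 stood at 1.88 and 1.19 and the Wnt-responsive sp5a at 0.37 and 0.32. None of these 9 genes had a mean as far from 0 as klf11a. Few genes of the array did: klf11a was chosen for its ratio, and its mean ranked 34th by size among 5904 genes.

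**Figure D4:**
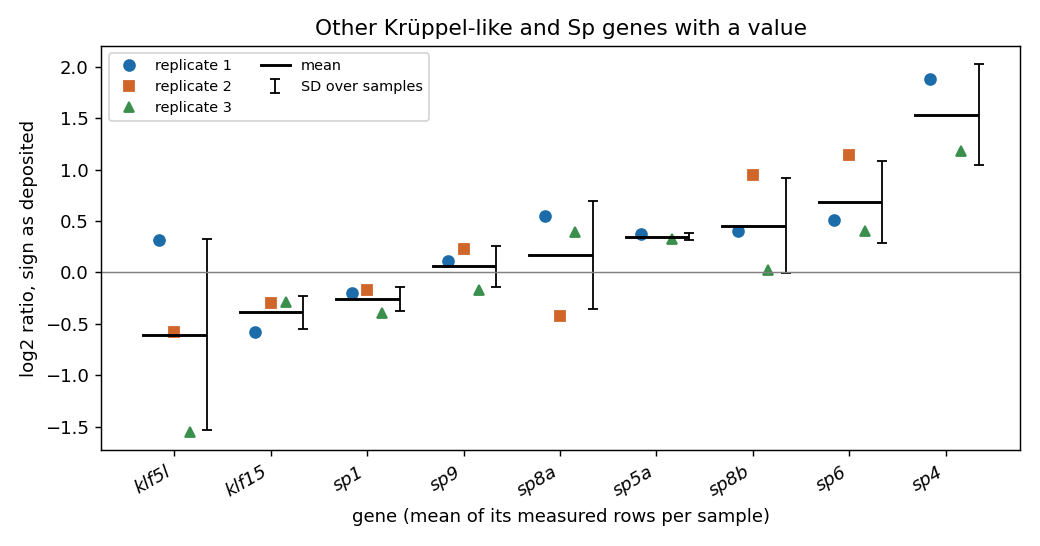
Log2 ratios (sign as deposited, y axis) of the other Krüppel-like and Sp genes with a value, ordered by mean, with a coloured marker per replicate, a line at the mean and a bar for the SD over samples. The means run from -0.60 for klf5l to 1.53 for sp4, which has no value in replicate 2.

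A list of chromatin cofactors had a median of mean ratios below that over all genes. Most were subunits of the SIN3 and CtBP corepressor complexes and their histone deacetylases. Of 13 on the array, 8 were measured in all samples; 4 had negative ratios in each sample and none had positive ratios in each, where 23.1% and 19.7% of all genes did. The 4 became 3 under each scaling and with the neighbouring spots removed. The median of their means was -0.40, beside -0.03 over all genes, and -0.25 without replicate 2. The 8 means ran from -0.79 to -0.04. Of these means 6 were negative without replicate 2 and 7 without replicate 3, and all 8 under each scaling. The median over all genes was also below 0 in each of these settings (-0.02 without replicate 2 and -0.03 without replicate 3). Negative means thus outnumbered positive ones among all genes too. Their share was not counted, and medians this near 0 do not give its size. The counts of negative means in the list are therefore not read as a result about these genes. None passed the adjusted p in limma, and 1 negative gene had an unadjusted p under 0.05, where 16.1% of all genes did. The 3 with the smallest p were sap30l, a subunit of the SIN3 complex (-0.79 ± 0.68, adjusted p = 0.298), the histone deacetylase hdac1 (-0.57 ± 0.33, adjusted p = 0.33) and wdr5, a subunit of histone methyltransferase complexes (-0.59 ± 0.58; SD, n = 3 each; adjusted p = 0.365, limma). By replicate, the median over the list stood at -0.24 in replicate 1, -0.70 in replicate 2 and -0.12 in replicate 3. It was farthest from 0 in replicate 2, which also had the widest ratios over all genes. The SD over genes was 0.80, 0.92 and 0.52 in replicates 1, 2 and 3, and its part in the list median was not tested. The SIN3 scaffold genes themselves stood at -0.04 ± 0.49 for sin3aa and -0.42 ± 0.83 for sin3b (SD, n = 3 each), and CtBP genes at -0.05 ± 0.28 for ctbp1 and -0.21 ± 0.20 for ctbp2a (SD, n = 3 each).

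Genes of TGF-beta signalling, the pathway for which mammalian KLF11 was first named, were split in sign. Of 9 measured in all samples, 2 were positive and 1 was negative in each sample (19.7% and 23.1% of all genes). The list median of 0.20 moved widely: it was 0.06 without replicate 2, 0.52 without replicate 3, 0.10 after quantile normalization, 0.11 with equal spread and 0.04 over completely measured rows. None passed in limma, and 1 positive gene had an unadjusted p under 0.05 (16.1% of all genes). The homeobox corepressor tgif1 stood at 1.57, 0.70 and 0.58 (0.95 ± 0.54, SD, n = 3; adjusted p = 0.219, limma). The SMAD-binding repressors skib and skia stood at 0.57 ± 0.38 and -0.45 ± 0.30 (SD, n = 3 each; adjusted p = 0.334 and 0.405, limma). The inhibitory SMAD gene smad7, measured in replicates 1 and 3, read -1.47 and 0.22. The receptor gene tgfbr1a, measured in the same replicates, read 1.04 and 0.46.

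Genes of the endothelial flow response, in which klf2a acts, also gave both signs. Of 9 measured in all samples, 3 were positive and 4 were negative in each, where 42.8% of all genes had 1 sign. The median of 0.10 was -0.13 without replicate 1. With the neighbouring spots removed it was -0.03, and 2 genes were negative in each sample. None passed in limma, and 3 had an unadjusted p under 0.05 (16.1% of all genes), 1 positive and 2 negative. The fibronectin genes fn1a (-0.86 ± 0.37, adjusted p = 0.219) and fn1b (-0.93 ± 0.56, adjusted p = 0.223) were negative in each sample, and the endothelial factor egfl7 was positive (0.73 ± 0.25; SD, n = 3 each; adjusted p = 0.238, limma). In replicate 2, where klf2a was negative, the list median was -0.04, with egfl7 at 0.84 and fn1a at -1.21. Of 5 endothelium markers on the array, 2 were measured in all samples. They were cldn5b, with a mean of 0.68, and egfl7 again, at 0.73, which is in both lists. The part of these markers in the klf2a values was not tested.

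Genes of the glucocorticoid and thyroid response, to which klf9 belongs, were measured in part, and klf9 was not. Of the listed thyroid genes only the receptor gene thrb had a value, at 1.52 and 1.18 in replicates 1 and 3. The counts over genes measured in all samples therefore hold no thyroid gene. Of 7 measured in all samples, 1 was positive and 3 were negative in each (19.7% and 23.1% of all genes), and the 3 became 2 under each scaling and with the neighbouring spots removed. The median of -0.38 was 0.06 without replicate 1 and -0.11 with the neighbouring spots removed. None passed in limma, and 3 had an unadjusted p under 0.05 (16.1% of all genes). The co-chaperone gene fkbp5 stood at -5.69, -3.10 and -2.66 (-3.82 ± 1.64, SD, n = 3; adjusted p = 0.116, limma), but it passed after quantile normalization and without replicate 3. The kinase gene sgk1 had the opposite sign (0.83 ± 0.38, adjusted p = 0.223), and hsd11b2, which inactivates cortisol, was negative (-0.90 ± 0.81; SD, n = 3 each; adjusted p = 0.281, limma). In the receptor list used as a check, the aryl hydrocarbon receptor gene ahr2 (-0.06 ± 0.21) and the receptor target tiparp (0.16 ± 0.35; SD, n = 3 each) did not pass (adjusted p = 0.92 and 0.769, limma). Of the receptor targets measured in replicates 1 and 3 alone, cyp1c1 stood at 3.20 and 4.45, with the sign of cyp1a, and cyp1b1 at 0.55 and -0.08.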

How the data were processed

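The authors deposited 1 table of 45219 rows with 1 log2 ratio per sample, which was used as deposited. The log2 unit was taken from the values, which are signed, centred near 0 and run from -12.9 to 11.9. The sources used here do not state the background correction, normalization, dye handling or the rule for empty rows. A value was present for 12735, 10487 and 12062 rows in replicates 1, 2 and 3, and 10200 rows had one in all. The number of arrays limits the precision.

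Probes carried 1 gene symbol for 21060 rows, none for 24159 and several for 0; the gene IDs of 20132 probes were found in the RefSeq table of GRCz12tu. Rows were matched to probes by grid position (266 by 170 spots), and a gene's measured rows were averaged per sample. Genes measured in all 3 samples were fitted with limma 3.58.1 in R 4.3.3 (intercept only, eBayes, 2-sided, Benjamini-Hochberg adjustment, threshold 0.05). The fit was also run on simulated ratios with normal noise, where it missed more of the added changes than it called. The share missed depends on the sizes chosen for the added changes. A gene that did not pass is not shown to be unchanged. The 3 samples are labelled biological replicates, but the labels do not say that they came from separate clutches. The p-values thus cover the spread of these samples alone, and how much of it is technical is not known. Fold counts used 1.5-fold and 2-fold. The members and the lists were chosen with earlier results of these data known. Named genes are the 10 members, all measured genes of the rest of the family, cyp1a, up to 3 genes of the smallest limma p per other list and the 5 genes nearest to klf11a. The SIN3 and CtBP genes, smad7, tgfbr1a, thrb, cyp1b1, cyp1c1 and cldn5b were added after their values were seen. No probe, protein or promoter sequences were used here.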

Additional observations from a re-analysis of the deposited data

How the results depend on the processing

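The mean of klf11a stayed between -2.05 and -1.79 with 1 replicate left out, and at -2.03 after quantile normalization. Removing the median of neighbouring spots, a setting chosen after seeing the data, gave -1.96. That of klf11b, -1.29 as reported, was -1.13 after either rescaling of the spread and -1.15 with the neighbouring spots removed. Members of 1 sign numbered 2 to 3 with 1 replicate left out, where fewer samples had to share a sign (3 without replicate 1, 3 without replicate 2 and 2 without replicate 3), and 2 with the neighbouring spots removed (klf11a and klf7b). The mean of klf6a took the other sign in 5 settings, that of klf3 in 2, and those of klf2a and klf2b in 1 each; all 4 had mixed signs as reported. The call by adjusted p in limma, 1 gene as reported (951 at an unadjusted p of 0.05), became 55 after quantile normalization, 47 after centring with equal median absolute deviation, 2 with the filter on small ratios and 0 with the ordinary statistic (605 at an unadjusted p of 0.05). It was 1 to 20 with 1 replicate left out (20 without replicate 3), and the cause was not tested. Genes of 1.5-fold numbered 315 as reported, 78 at 2-fold and 539 to 926 with 1 replicate left out (539, 822 and 926 without replicates 1, 2 and 3), and genes of 1 sign 2528 as reported and 3501 to 4472 (4472 without replicate 2), again with fewer samples to pass. The glucocorticoid list had 1 gene past the threshold, fkbp5, after quantile normalization, and 0 to 1 with 1 replicate left out (1 without replicate 3). With the row numbers as given, 30.8% of member probes had a value. The signal behind each ratio was not known. Each ratio already sets exposed against control embryos within 1 sample, and the samples form 1 group, so no further pairing was modelled.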
